A study of Mus musculus with 16 samples.

Results

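RUNX1 binding in proliferating mouse myoblasts was described from 42226 peaks, which are all peaks on chromosomes 1 to 19 of the deposited RUNX1 list. They are part of 193322 peaks in the 4 deposited lists, and a further 555 RUNX1 peaks on chromosome X were set aside. The study mapped transcription factors on chromatin by ChIP-seq, in which DNA bound by a factor is precipitated with an antibody and sequenced. Its 16 samples formed 8 groups of 2. RUNX1 was precipitated with an in-house antibody in 2 libraries, and 2 libraries precipitated with rabbit non-immune serum were the controls. Both groups were primary myoblasts, the proliferating descendants of muscle stem cells, grown for 3 days from the gastrocnemius of wild-type C57BL/6 mice aged 2 to 3 weeks. MyoD and c-Jun were mapped in the same kind of cells, and MyoG in early myotubes, after 24 hours in differentiation medium. The labels call the replicates biological, and they do not say how many animals stood behind each culture.

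RUNX1 is a transcription factor with a Runt domain that binds DNA together with its partner subunit CBFB. It is best known from blood formation, and in muscle it is known to be induced after denervation and injury. MyoD is the basic helix-loop-helix factor that commits cells to the muscle lineage, and MyoG is the related factor that acts when myoblasts differentiate. c-Jun is a subunit of AP-1, a factor that responds to growth signals.

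A single list was given for the 2 RUNX1 libraries, with no value per library, and the control libraries have no values of their own in it. The spread between cultures could therefore not be computed, and no test over samples was possible. Errors below are SD over 19 chromosomes, which describe the spread between chromosomes. This SD also depends on how many peaks each chromosome holds and is wide where a group is small. It is therefore not a measure of evenness along the genome alone. Read depth behind the peaks is unknown. The list read as MyoG bears an abbreviation and was assigned to MyoG because each other factor's list is named, so every MyoG value below rests on that assignment. The lists hold positions and scores only, so the myoblast identity of the cells was not checked against marker genes. Positions are on the mouse build mm9. No annotation or sequence of that build was used here, so peaks were not assigned to genes and no sequence is printed.

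RUNX1 peaks ranged over the whole scale of the authors' score, with most of them near its lower end. The score rose from 50.01 to 3233.06, with a median of 177.92 ± 5.65 (SD over 19 chromosomes) and quartiles of 86.79 and 451.7. Of all peaks, 30.2% scored under 100 and 9.12% scored under 60. The upper end was reached by few, since 10% of the peaks scored above 998.5. The median score varied little between chromosomes, from 169.4 on chromosome 3 to 192.2 on chromosome 5.

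At exactly 3100, 362 RUNX1 peaks were tied, and this value is called the ceiling below although it was not the highest score. The next lower score was 3096.27, and 45 peaks lay from 3000 up to the ceiling, as many as lay between 2900 and 3000. A further 55 peaks scored above 3100, with 54 distinct values, and 1 of them had the highest score of 3233.06. This maximum was the same in the MyoD, c-Jun and MyoG lists, and it equals 10 times the negative log10 of the smallest positive number that double-precision arithmetic can hold. The peak names begin with MACS, a peak caller whose early versions are known to write a p-value on that scale as the score. The version is not given in the sources used here. For the 362 tied peaks the score gives no order. Whether they were weaker or stronger than the 55 peaks above 3100 cannot be told from it. Together with those above 3100 they numbered 417, or 0.988% of the list.

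Widths and partners were also compared just below, at and above the ceiling, in the order of the written score, which need not be that of strength. The median width was 1464 bp for 310 peaks from 2500 up to the ceiling, 1670.5 bp for the 362 tied at 3100, and 1382 bp for the 55 above. A c-Jun peak overlapped 81.9%, 88.4% and 85.5% of these groups. A MyoD peak overlapped 60.97% below the ceiling, 70.4% at it and 74.5% above it. All 3 partners were met by 52.6%, 64.9% and 69.1%, and none by 4.52%, 4.14% and 9.09%. The group above 3100 holds few peaks, so 1 peak more or less moves its shares visibly.

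RUNX1 peaks were mostly about 1 kb wide, and stronger peaks were wider. The median width was 945 bp ± 42.8, with quartiles of 766 and 1290 bp and a full range of 258 to 13054 bp. In 10 classes of the score with nearly equal numbers of peaks, the median width grew at each step, from 719 bp in class 1 (scores of 50.01 to 61.17) to 1397 bp in class 10 (scores from 998.88). Across the 42226 peaks, Spearman's rank correlation between score and width was 0.548.

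The tie between score and width was looser for RUNX1 than for the other factors. The rank correlation was 0.712 in the MyoD list, 0.723 in the MyoG list and 0.847 in the c-Jun list. Per chromosome, the rank correlation for RUNX1 ran from 0.493 to 0.599, below the lowest value of any other list, which was 0.689. Peaks of 1 list share their libraries, so these values carry no test. Wide but weak RUNX1 peaks exist: 411 belonged both to the widest of 5 width classes (1392 bp or more) and to the weakest of 5 score classes (up to 76.77). The plot of scores and widths shows the tied peaks as a separate column.

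**Figure D1:**
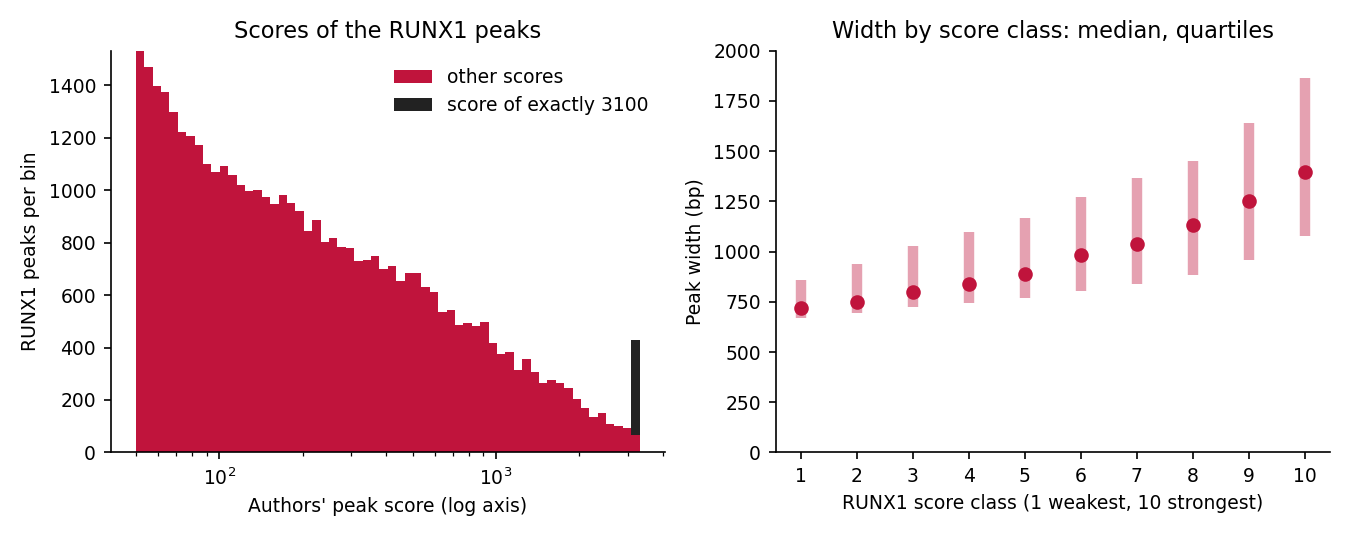
Left: number of RUNX1 peaks per bin of the authors' score on a log axis, with the 362 peaks tied at exactly 3100 in black. Right: peak width in bp for 10 score classes, with points for medians and bars for quartiles; the median goes from 719 bp in class 1 to 1397 bp in class 10.

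The 5 widest RUNX1 peaks lay in stretches that all 4 factors occupied. The widest peak, 13.1 kb at chr19:5837601-5850654, was at the score ceiling and held 6 MyoD, 4 c-Jun and 8 MyoG peaks. The next, 9.37 kb at chr11:98797857-98807230, scored 1015 and held 3 MyoD, 2 c-Jun and 6 MyoG peaks, of which the highest scored 476.04. Those of 8.3 kb at chr15:76032310-76040609 and of 7.91 kb at chr10:79621183-79629089 were both at the ceiling, as was a MyoD and a MyoG peak in each. The last of the 5 widest, 6.77 kb at chr11:117170347-117177117, scored 536.9. In all, 69 RUNX1 peaks were wider than 4 kb, of which 14 were at or above the ceiling and 52 met all 3 other factors. Over the whole RUNX1 list, 0.988% of the peaks were at or above the ceiling and 25% met all 3. The 69 wide peaks had a median score of 1607, against 177.92 in the whole list. Wider peaks can meet more partner peaks, and these counts were not taken at like width or score.

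RUNX1 peaks more often coincided with peaks of the other factors the stronger they were. A RUNX1 peak was counted as shared if a peak of another list overlapped it by at least 1 bp. Over all RUNX1 peaks, the share was 44.5% with MyoD (18794 peaks), 47.0% with c-Jun (19827) and 58.1% with MyoG (24521). All 3 partners were present at 25% (10536 peaks) and none at 25% (10565). These shares varied by 0.981 to 1.47 percentage points (SD) between chromosomes. For scale, the 3 partner lists cover 1.54%, 2.00% and 1.73% of the bases of these chromosomes, in the same order. Coverage is not the share that random placement would give under the 1 bp rule. That share also grows with the width of the RUNX1 peak and was not computed.

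From the weakest to the strongest RUNX1 class, the c-Jun share went from 27.0% ± 3.78 to 76.0% ± 3.70. The MyoG share went from 37.6% ± 3.22 to 80.1% ± 2.68, and the MyoD share from 28.7% ± 2.74 to 60.9% ± 3.16. Each share was higher at every one of the 9 steps between classes. On each chromosome the top class lay above the bottom class for each partner. The difference was 49.0 percentage points ± 4.68 for c-Jun, 42.6 ± 4.62 for MyoG and 32.2 ± 4.74 for MyoD. The lowest chromosome still differed by 41.3, 32.7 and 23.2 points.

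c-Jun and MyoD changed places along the RUNX1 score. In the 5 weakest classes the MyoD share was above the c-Jun share, with 35.0% ± 3.14 against 31.4% ± 3.89 in class 2, where MyoD was ahead on 15 of 19 chromosomes and c-Jun on 3. The order was weaker in the others, with MyoD ahead on 11 chromosomes and c-Jun on 6 in class 1, on 14 and 5 in class 3, on 11 and 8 in class 4, and on 10 and 7 in class 5. In class 9 c-Jun was ahead on 19 of 19 chromosomes, at 64.2% ± 3.02 against 53.9% ± 3.35. In class 10 it was again ahead on 19 of 19, by 76.0% against 60.9%.

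Taken over all peak widths, the trends were flatter under a stricter rule for sharing. When the centres of both peaks had to lie within 150 bp, the c-Jun share went from 15.2% ± 2.79 to 36.2% ± 4.13 and still increased at 9 of 9 steps. The MyoD share went from 17.8% ± 2.93 to 29.6% ± 1.98, but from class 5 upward it stayed between 26.2% and 29.6%, a range of about the size of the SD. Under this rule MyoD was ahead of c-Jun up to class 7, at 28.6% ± 3.55 against 28.0% ± 4.01, and behind it from class 8. MyoG went from 26.3% ± 2.23 to 42.8% ± 3.87, with 6 of 9 steps upward. The plot of shares by score class sets both rules side by side.

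**Figure D2:**
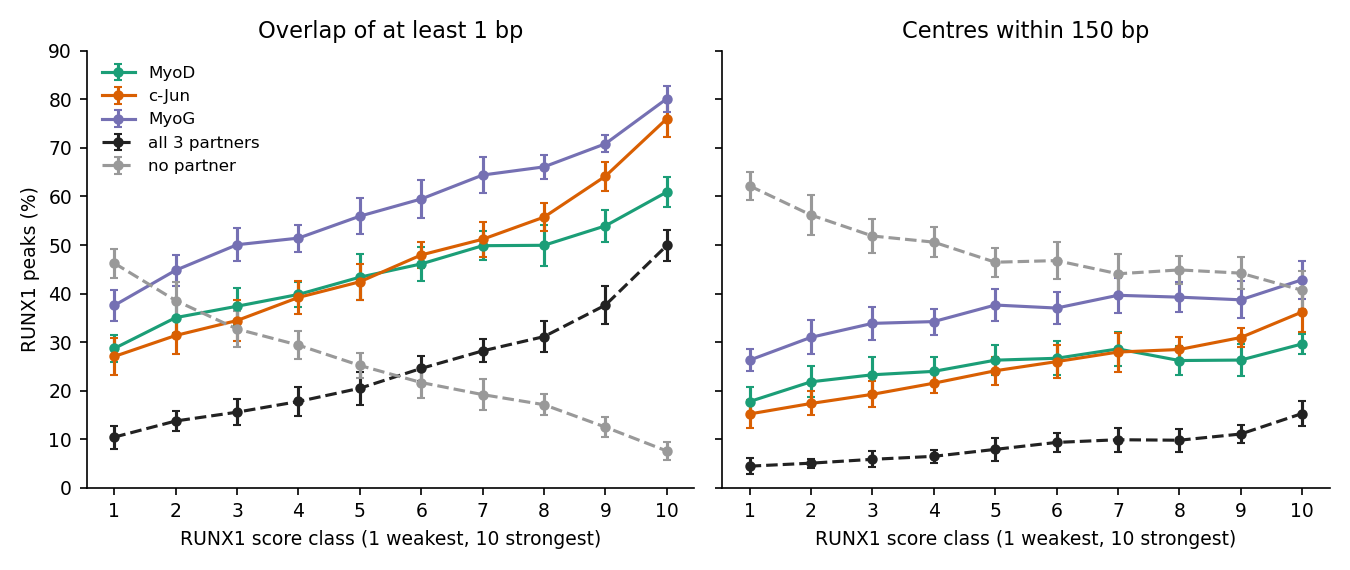
Share of RUNX1 peaks (%) met by MyoD, c-Jun, MyoG, all 3 or none, by RUNX1 score class; points are shares over all peaks of a class and bars are SD over 19 chromosomes. With an overlap of 1 bp (left) c-Jun goes from 27.0% to 76.0%, and with centres within 150 bp (right) from 15.2% to 36.2%.

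Strong peaks were wide, so the shares were also taken at like width. Within each of 5 width classes, the strongest of 5 score classes had a higher share than the weakest for each partner. The difference was 37.7 to 42.1 percentage points for c-Jun, 19.2 to 34.6 for MyoG and 17.8 to 35.8 for MyoD. Among the narrowest peaks (258 to 743 bp), the c-Jun share was 30.8% ± 5.20 in the weakest score class (4464 peaks) and 68.5% ± 17.7 in the strongest (73 peaks). Among the widest it was 31.4% ± 16.3 (411 peaks) and 73.5% ± 3.32 (3799 peaks). With centres within 150 bp, the strongest class again lay above the weakest in all 5 width classes for each partner. For MyoD that difference ran from 4.99 points among the widest peaks to 34.2 points. Under this rule the widest peaks had lower shares than the narrowest in each of the 5 score classes for each partner, by -14.6 to -41.3 points for MyoD, -14.5 to -35.5 for c-Jun and -19.6 to -47.6 for MyoG. With an overlap of 1 bp the same differences ran from -4.22 to 6.83 points for MyoD, from -7.90 to 4.97 for c-Jun and from 4.71 to 19.9 for MyoG.

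The make-up of the partners changed along with their number. RUNX1 peaks with all 3 partners went from 10.4% ± 2.36 of class 1 to 49.9% ± 3.26 of class 10, and those without any went from 46.3% ± 2.99 to 7.58% ± 1.92. Peaks with c-Jun and MyoG but no MyoD went from 2.58% ± 0.971 to 14.0% ± 2.28, higher in the top class on 19 of 19 chromosomes. Peaks with MyoD and MyoG but no c-Jun were most frequent in the middle, at 18.4% in class 5, and made up 9.95% ± 2.64 of class 10. The c-Jun and MyoG combination had a median RUNX1 score of 386.1 and a median width of 1185.5 bp, and the MyoD and MyoG combination had 165.9 and 903 bp. For peaks without a partner these were 106.3 and 859 bp. Peaks with MyoD alone were rare throughout, at 2.15% ± 0.772 in class 1 and 0.213% ± 0.458 in class 10. Peaks with c-Jun alone made up 11.9% ± 1.98 of class 1, 14.9% of class 4 and 11.2% ± 2.26 of class 10, and the top class was above the bottom class on 9 of 19 chromosomes. With centres within 150 bp, all 3 partners were met by 4.46% ± 1.7 of class 1 and 15.3% ± 2.49 of class 10, and no partner by 62.2% ± 2.83 and 40.7% ± 3.92.

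**Figure D3:**
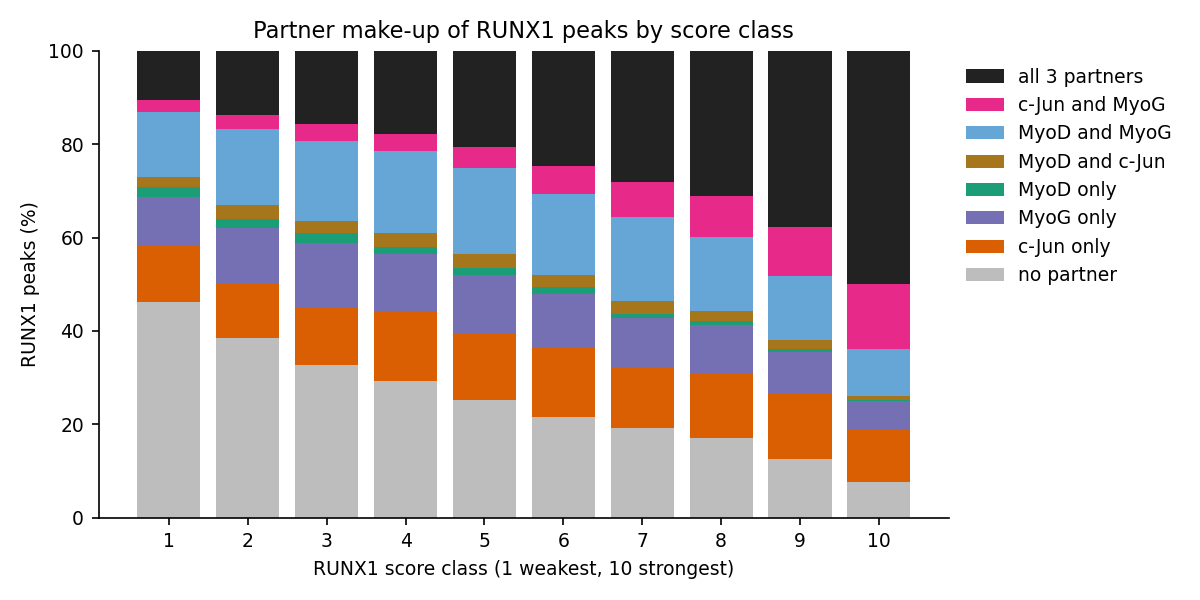
Share of RUNX1 peaks (%) with each of 8 combinations of MyoD, c-Jun and MyoG peaks, by RUNX1 score class, with an overlap of at least 1 bp. The part with all 3 partners goes from 10.4% to 49.9% and the part with none from 46.3% to 7.58%.

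MyoG in myotubes was found at strong RUNX1 peaks also where myoblasts had no MyoD peak. Among RUNX1 peaks without MyoD, the MyoG share was 18.5% ± 3.94 in class 1 (3018 peaks) and 51.9% ± 5.73 in class 10 (1650 peaks). Among RUNX1 peaks with MyoD it was already high in class 1, at 84.9% ± 3.46 of 1215 peaks, and reached 98.3% ± 1.41 of 2572 in class 10. MyoG was mapped in other cells than RUNX1 and the cell stage changed with the factor, so factor and stage cannot be told apart.

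c-Jun followed the RUNX1 score at peaks with and without MyoD. With MyoD its share went from 44.0% ± 7.17 in class 1 to 83.3% ± 4.16 in class 10. Without MyoD it went from 20.2% ± 3.49 to 64.6% ± 5.74. Where c-Jun was absent, the MyoD share went from 22.1% ± 2.83 to 42.3% ± 8.08. Where c-Jun was present, it went from 46.6% ± 6.60 to 66.8% ± 3.53.

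The highest-scoring partner peak was itself stronger at stronger RUNX1 peaks, though loosely. Where several peaks of a partner overlapped a RUNX1 peak, only the highest score was used. Wider RUNX1 peaks can meet more partner peaks, and the median width was 719 bp in class 1 and 1397 bp in class 10. How far width accounts for the rise was not tested, and medians of whole lists are not a like comparison. The median MyoD score was 219.1 ± 37.6 at RUNX1 peaks of class 1 and 609.4 ± 94.0 at those of class 10, against 176.9 in the whole MyoD list. For MyoG the medians were 259.1 ± 62.3 and 711.4 ± 99.8, and for c-Jun 194.7 ± 45.8 and 384.5 ± 54.4. Across shared peaks, Spearman's rank correlation between the RUNX1 score and the partner score was 0.206 for MyoD (18794 peaks), 0.195 for MyoG (24521) and 0.132 for c-Jun (19827). c-Jun thus had the steepest change in presence and the lowest rank correlation in score. Of the RUNX1 peaks at or above the ceiling, 367 met c-Jun, and 14 of these met a c-Jun peak that was itself at or above 3100. For MyoD these were 48 of 296 and for MyoG 71 of 359. In the whole lists 0.776% of c-Jun, 1.92% of MyoD and 1.26% of MyoG peaks were at or above 3100.

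Seen from the partner lists, strong peaks met RUNX1 more often as well, counted with an overlap of at least 1 bp. In these lists score and width were more closely tied than in the RUNX1 list. The shares were not taken at like width, so how far width accounts for the rise was not tested. A RUNX1 peak overlapped 22.7% ± 3.21 of the weakest class of MyoD peaks and 75.1% ± 4.98 of the strongest, 29.6% ± 4.56 and 76.6% ± 4.68 of c-Jun peaks, and 24.5% ± 2.41 and 81.4% ± 3.14 of MyoG peaks. For RUNX1 peaks that lacked a given partner, the distance to the nearest peak of that partner was also taken. The median distance between centres to the nearest MyoD peak was 9.56 kb ± 0.958 in class 1 and 9.42 kb ± 1.92 in class 10. For c-Jun these were 10.97 kb ± 1.43 and 11.7 kb ± 3.56, and for MyoG 6.96 kb ± 1.05 and 8.45 kb ± 2.48. Each of these differences was smaller than the SD in class 10, but that for MyoG was larger than the SD in class 1. Between these classes the MyoG distance was 7.94 kb ± 1.75 in class 6 and 9.05 kb ± 2.50 in class 9.

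A small group of RUNX1 peaks was at or above the ceiling with no partner at all, 20 of 417 (4.80%). The 5 widest of these lay at chr3:91884203-91886265, chr13:85427632-85429634, chr17:4994642-4996609, chr2:126500111-126502028 and chr1:158648197-158649676. The first 4 were tied at 3100, and the fifth scored 3212. Their widths were 1480 to 2063 bp. The one on chromosome 17 had another RUNX1 peak 0.023 kb away, while the nearest to the one on chromosome 13 was 97.7 kb away.

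RUNX1 peaks were unevenly spread over the genome. The density was 17.1 peaks per Mb over all 19 chromosomes, and it ran from 12.1 on chromosome 14 to 26.4 on chromosome 11, a ratio of 2.18. Chromosomes 19 (22.6 per Mb) and 17 (21.4) came next to chromosome 11, and chromosomes 3 (12.8) and 1 (14.3) next to chromosome 14. Chromosome 11 was also the densest and chromosome 14 the sparsest in each other list, where the ratio of highest to lowest density was 1.79 for MyoD, 1.69 for c-Jun and 2.05 for MyoG.

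RUNX1 peaks outnumbered c-Jun peaks on the 3 densest chromosomes and were outnumbered on the 3 sparsest. There were 1.23 RUNX1 peaks per c-Jun peak on chromosome 11, 1.11 on chromosome 19 and 1.17 on chromosome 17, but 0.953 on chromosome 14, 0.857 on chromosome 3 and 0.915 on chromosome 1. Per MyoD peak the numbers were 1.06 on chromosome 11 and 0.821 on chromosome 3. Over the 19 chromosomes, Spearman's rank correlation between RUNX1 density and the ratio to c-Jun was 0.814, a description in which the RUNX1 number enters both measures. The share of RUNX1 peaks with c-Jun was 44.8% on chromosome 11 and 49.1% on chromosome 3.

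Neighbouring RUNX1 peaks were mostly some kb apart. The gap from the edge of a peak to the edge of the nearest other RUNX1 peak had a median of 6.78 kb ± 1.30, quartiles of 2.04 and 18.8 kb and a mean of 20.9 kb. No RUNX1 peaks touched. The gap was under 1 kb for 16.1% of the peaks, under 10 kb for 59.6% and over 100 kb for 3.12%. The MyoD list was spaced almost alike, with a median of 6.94 kb, and the c-Jun list more widely, with 8.16 kb, at nearly the same number of peaks. The RUNX1 median ran from 5.30 kb on chromosome 11 to 9.38 kb on chromosome 13.

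**Figure D4:**
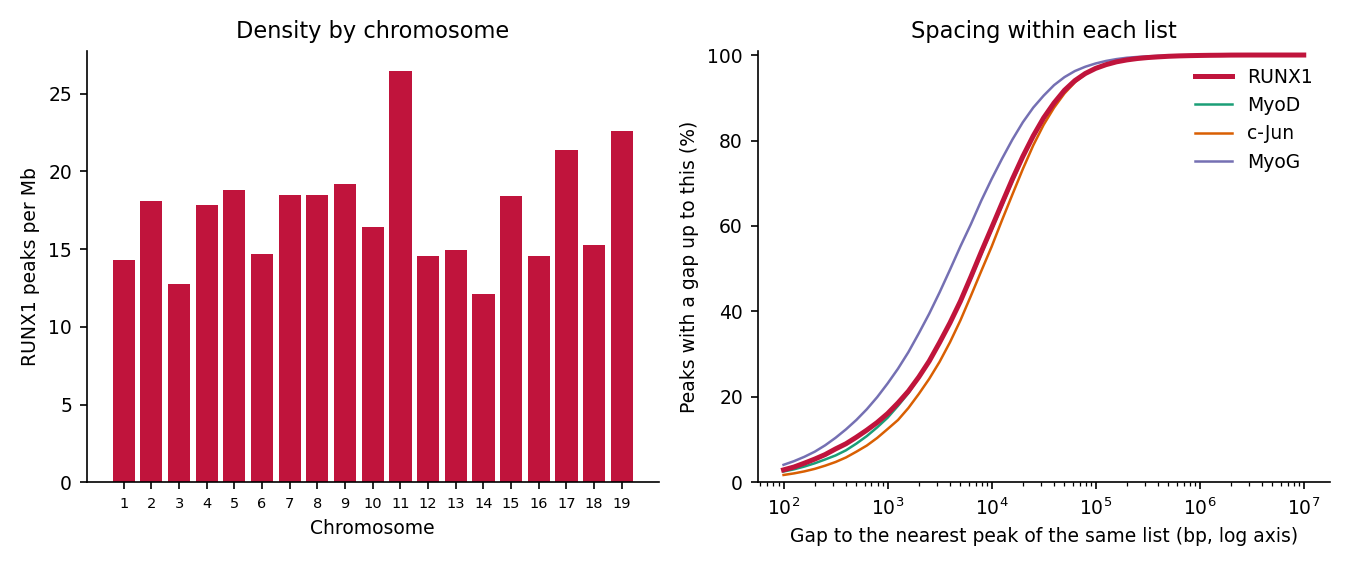
Left: RUNX1 peaks per Mb on each chromosome, from 12.1 on chromosome 14 to 26.4 on chromosome 11. Right: cumulative share of peaks (%) by the gap to the nearest peak of the same list, in bp on a log axis; the RUNX1 curve passes 59.6% at 10 kb.

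Spacing hardly depended on the score except at the top. The median gap lay between 6.62 and 7.44 kb in classes 1 to 9 and was 5.73 kb in class 10. The 1317 peaks more than 100 kb from any other RUNX1 peak had a median score of 135.1, against 179.7 for the rest. Of these 1317, 89 were in class 10, which holds 4222 of all 42226 peaks. Their median width was 796 bp, against 945 bp in the whole list. Isolated peaks met MyoD in 37.6% ± 4.84, c-Jun in 41.9% ± 6.66 and MyoG in 46.3% ± 5.01, below the 44.5%, 47.0% and 58.1% of the whole list. These shares were not taken at like score or width.

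The 5 highest-scoring isolated peaks below the ceiling differed in their partners. The peak at chr2:80155260-80156245 scored 2731 and met a MyoD peak of 175.5 and a c-Jun peak of 103.0, against list medians of 176.9 and 172.5. The peak at chr4:93001133-93002821 scored 2712 and met a MyoG peak of 277.7 only. The peak at chr5:42234631-42235945 scored 2665 and met none. Those at chr10:56502004-56502650 and chr10:50311958-50313062 scored 2598 and 2593 and met all 3. The second of that pair was 803 kb from the nearest RUNX1 peak.

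Neighbouring RUNX1 peaks did not resemble each other in strength. Over 42207 pairs of adjacent peaks, Spearman's rank correlation between their scores was 0.0079, and it ran from -0.0552 to 0.0571 over the chromosomes. For the 2336 pairs under 500 bp apart the rank correlation was 0.0082, and for the 1790 pairs 200 kb or more apart it was 0.024. In the other lists the values over all pairs were 0.025 for MyoD, 0.025 for c-Jun and 0.033 for MyoG. Widths of adjacent RUNX1 peaks were loosely alike, with a rank correlation of 0.157 under 500 bp and 0.0043 from 200 kb.

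Partners were shared between the closest neighbours. For pairs under 500 bp apart, the second peak met c-Jun in 71.5% where the first did and in 36.3% where the first did not. From 500 bp to 1 kb these shares were 55.2% and 44.1%, and from 200 kb on 45.3% and 42.0%. One partner peak can touch both members of a close pair, and 680 c-Jun, 265 MyoD and 184 MyoG peaks overlapped 2 or more RUNX1 peaks. For MyoD the shares were 60.5% and 38.9% under 500 bp, and 41.7% and 35.7% from 200 kb on.

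RUNX1 peaks formed chains of various lengths. Joining peaks with gaps of at most 0.0125 Mb gave 23361 chains, of which 14724 held a single peak (34.9% of all peaks), 7295 held 2 to 4 (43.2%) and 1342 held 5 or more (22.0%). The chains of 5 or more spanned a median of 31.1 kb. At nearly the same number of peaks, c-Jun had 955 such chains with 14.7% of its peaks, and MyoD had 1347 with 19.8%. Peaks in chains of 5 or more were somewhat stronger and wider than single ones, with a median score of 193.0 against 172.3 and a median width of 1062 against 897 bp.

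RUNX1 peaks in chains of 5 or more met all 3 partners more often than single peaks in 10 of 10 score classes, with the widest difference in class 10. Shares were also higher in chains in 10 of 10 classes for MyoD and for MyoG, and in 7 of 10 for c-Jun. The c-Jun share was lower in chains in class 1 (24.8% against 26.8%), class 2 (30.6% against 30.7%) and class 5 (39.2% against 44.1%). In class 10, all 3 partners were met by 63.8% ± 6.54 of peaks in chains of 5 or more (1123 peaks) and by 38.4% ± 6.08 of single peaks (1351). The difference of 25.4 percentage points ± 9.53 was above 0 on 19 of 19 chromosomes. The shares differed more for MyoD than for c-Jun, with 72.5% ± 6.58 against 49.1% ± 7.70 for MyoD and 83.4% ± 5.72 against 70.5% ± 5.50 for c-Jun. In class 1, the share with all 3 partners was 11.3% ± 7.91 in chains of 5 or more and 9.35% ± 3.71 for single peaks, which is within the spread. The chained peaks of class 10 were also wider, with a median of 1566 against 1341 bp.

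Under the stricter rule the difference in class 10 was smaller than its SD over chromosomes, although for MyoD it kept its direction on most of them. With centres within 150 bp, all 3 partners were met by 16.5% of chained and 14.0% of single peaks of class 10, a difference of 2.48 percentage points ± 7.22 that was above 0 on 13 of 19 chromosomes. For MyoD the difference in class 10 was 6.96 points ± 8.09, above 0 on 18 of 19 chromosomes. For MyoG it was 4.15 points ± 10.8, above 0 on 13 of 19, and for c-Jun 2.77 points ± 10.6, above 0 on 9 of 19. Shares were higher in chains in 10 of 10 classes for MyoG, 7 of 10 for MyoD, 6 of 10 for all 3 and 2 of 10 for c-Jun. Averaged over the 10 classes, the difference was 4.10 points for MyoG, 2.44 for MyoD, 0.19 for all 3 and -2.91 for c-Jun. Under this rule shares fell with peak width at like score, as given above. The plot of chains by score class shows both rules.

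**Figure D5:**
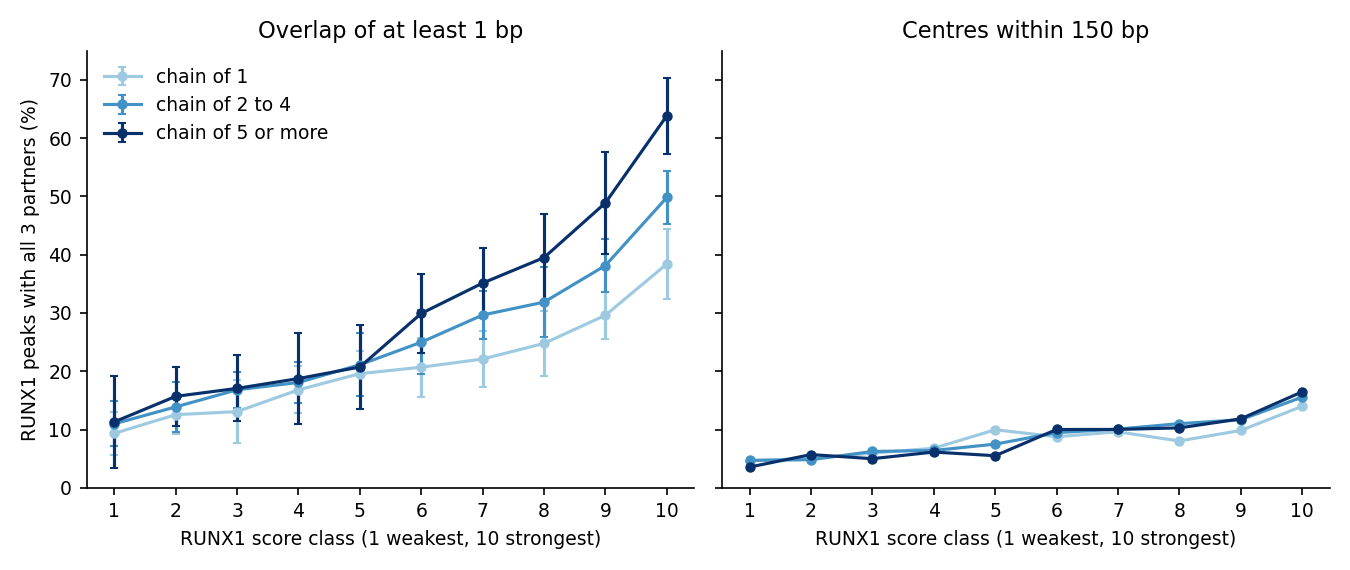
Share of RUNX1 peaks (%) with all 3 partners by RUNX1 score class, for peaks alone in their chain, in chains of 2 to 4 and in chains of 5 or more; bars in the left panel are SD over 19 chromosomes. In class 10 the shares are 38.4% and 63.8% for single peaks and chains of 5 or more with an overlap of 1 bp (left), and 14.0% and 16.5% with centres within 150 bp (right).

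The largest chain held 24 RUNX1 peaks over 112 kb at chr11:117083676-117195864. Its scores ran from 50.42 to 2139 with a median of 269.6, and the stretch also held 22 MyoD, 20 c-Jun and 29 MyoG peaks. Chromosome 11 held a further pair of the 10 chains with the most peaks, with 20 peaks at chr11:119774520-119892211 and 19 at chr11:117773918-117866113. Chains of 19 lay at chr14:26275874-26387251 and at chr10:80204263-80319445, and chains of 18 at chr2:26335052-26429521 and at chr4:151441171-151513538. Those of 17 lay at chr8:11374215-11466030 and at chr2:167363098-167444368. The last of the 10 held 16 peaks at chr8:129349646-129415675.

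These chains mixed strong and weak peaks. The lowest score in each lay between 50.01 and 66.03, and in 8 of the 10 the highest was above 2000. The chain on chromosome 4 was the exception among those of 18, with a median score of 99.83 and a highest score of 571.3. There 16 of 18 RUNX1 peaks met MyoG, 9 met MyoD and 4 met c-Jun. In the chain of 16 on chromosome 8, by contrast, 12 met c-Jun, 12 met MyoG and 9 met all 3.

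In fixed windows of 100 kb, RUNX1 peaks were concentrated as well. Of 24731 windows, 49.0% held no RUNX1 peak, and the median of the others was 3. The 462 windows with 10 or more (1.87% of all windows) held 5374 peaks, or 12.7% of the list. The fullest 10% of the windows held 45.1%.

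The fullest window lay at chr6:52100001-52200000 and held 20 RUNX1 peaks with a highest score of 1274. Of these 20, 3 met MyoD, 5 met c-Jun, 8 met MyoG and 10 met none, while 1 met all 3. The window held 5 MyoD and 5 c-Jun peaks in all, with scores up to 362.0 and 563.6, and 12 MyoG peaks with scores up to 1638. The next window, at chr11:117100001-117200000, held 19 RUNX1 peaks, of which 12 met MyoD, 12 met c-Jun and 2 met none. At chr8:122700001-122800000, 18 RUNX1 peaks all met MyoG and 14 met MyoD. The windows at chr12:106200001-106300000 and at chr18:36000001-36100000 held 17 each, with 8 and 6 peaks that met all 3 and 1 and 7 that met none.

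The longest stretches between neighbouring RUNX1 peaks were also nearly empty in the other lists. The longest, 7.65 Mb at chr7:39058143-46704537, held 2 MyoD, 0 c-Jun and 3 MyoG peaks, where the mean RUNX1 density would give 131 RUNX1 peaks. The others were 6.87 Mb at chr8:98440606-105307734, 6.58 Mb and 6.13 Mb at chr1:100066454-106643102 and chr1:24741424-30875919, and 5.91 Mb at chr5:58290983-64203214. The stretch of 6.58 Mb held 0 MyoD, 1 c-Jun and 1 MyoG peak, none scoring above 58.49. Across the 5 stretches, no partner list had more than 7 peaks in any. Whether reads could be placed in these stretches was not tested.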

How the data were processed

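The deposited files were 4 peak lists, 1 per factor, and RUNX1, MyoD and c-Jun were matched to their lists by name. The list taken as MyoG carried an abbreviation and was assigned by elimination. Each peak has a position and a score that the authors' peak caller wrote, whose unit is not given in the sources used here. Reads had been processed with CASAVA 1.7.0 and 1.8.2 and Bowtie on mm9, per the submitters' processing notes. The peak caller's version and settings, the control it used and any joining of replicates are likewise unstated there. Per the labels' protocols, chromatin was sheared to about 300 bp and libraries of about 250 bp were amplified for 15 cycles.

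Python 3.11.15, numpy 2.4.6, pandas 2.3.3 and matplotlib 3.10.9 were used, with mm9 chromosome lengths from GenomeInfoDb 1.38.1. No RUNX1 peak (0) lay beyond a chromosome end. Score classes were cut at deciles, with equal scores in 1 class. The overlap, gap and chain functions were checked on planted data. The described set and the comparisons were chosen with earlier results of these data known. Named peaks and regions followed a fixed rule: the 10 chains with the most peaks, the 5 fullest windows, the 5 longest stretches between peaks, the 5 widest peaks, the 5 widest at or above the ceiling without a partner and the 5 highest-scoring isolated ones. Alternatives are given in the closing section.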

Additional observations from a re-analysis of the deposited data

How the results depend on the processing

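Of 67 alternative values for 20 results, 35 moved by less than the SD over chromosomes (for counts, stayed within 1.5 times), 32 moved further and 0 changed sign. Gaps, counts, the density ratio and the median score cannot change sign. Among the chain differences, only that for all 3 partners in class 10 was part of this tally. The c-Jun chain difference, averaged over 10 classes, was 4.52 points with an overlap of 1 bp and -2.91 with centres within 150 bp. The difference between the strongest and the weakest RUNX1 class kept its sign in 40 of 40 alternatives for partner shares. In percentage points and in the order MyoD, c-Jun, MyoG, all 3 and none, it was 11.9, 21.0, 16.6, 10.8 and -21.5 with centres within 150 bp. With every peak cut to 200 bp it was 13.4, 25.8, 20.2, 14.4 and -24.4, and with 5 score classes 25.6, 40.9, 34.3, 31.7 and -32.4. With RUNX1 scores of at least 100 it was 23.1 for MyoD, 40.3 for c-Jun, 31.2 for MyoG and -23.2 for no partner. With partner scores of at least 100 it was 32.4, 45.2, 41.3, 33.4 and -42.6 in the order above. Without any such limit the values were 32.2, 49.0, 42.6, 39.5 and -38.7, so the contrast for no partner was wider with the partner limit. The alternatives with fewer classes or fewer weak RUNX1 peaks narrow the contrast by construction. At like width, centres within 150 bp gave a mean difference of 30.0 for c-Jun, 16.9 for all 3 and -36.5 for none. With an overlap of 1 bp these were 39.5, 29.7 and -30.4. For MyoD and MyoG the mean difference changed little, at 24.0 and 30.3 against 26.5 and 29.1 with 1 bp. The rule of centres within 150 bp at like width and in chains was added after the data were seen. The median gap was 10.3 kb without RUNX1 scores under 100. Chains of 5 or more numbered 592 without those scores, 332 with gaps of at most 5 kb and 2267 with gaps of at most 25 kb, and 42 windows of 50 kb held 10 or more peaks. The rank correlation between scores was 0.174 for MyoD and 0.153 for MyoG without peaks at or above 3100, and 0.253 for MyoD with centres within 150 bp. The chain difference of strong peaks was 2.48 points with centres within 150 bp. The cause of these shifts was not tested, beyond the construction named above.

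No paired analysis was possible because each factor has 1 joint set of peaks, and leaving out a replicate was not run for that reason. Promoters and motifs were not run without a genome of the files' build. Read depth is unknown, so no limit can be given for sites without a peak.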

Other observations

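The 555 RUNX1 peaks on chromosome X, which entered only the alternative that adds this chromosome, were sparse, and their scores were lower. Their density was 3.33 per Mb, 0.195 times that of chromosomes 1 to 19, and the median gap was 30.6 kb. The median score was 132.2, and 2 peaks were at or above the ceiling. Shares with MyoD (29.7%), c-Jun (32.1%) and MyoG (45.8%) were each lower than the lowest share on any of the 19 other chromosomes, which were 42.9%, 44.8% and 55.3%. No partner was met by 38.0% of them, against at most 26.7% on the other chromosomes. The density of the other lists on chromosome X is not given here, so these values do not set RUNX1 apart from the other factors.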
